A study of Homo sapiens with 6 samples.

Results

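The aminoacyl-tRNA synthetases of Panc-1 cells, with AIMP1, a protein that holds several of them together, were examined for changes in expression with TGFβ. Members were the probe sets annotated to only 1 gene whose symbol marks a synthetase (a letter for the amino acid followed by ARS, with or without 1 or 2, and EPRS1, FARSA, FARSB and FARS2) or a protein of the synthetase complex. The rule found 70 of the 54675 probe sets of the array. They covered 33 of the 19777 genes that had a probe set of their own, namely 17 cytosolic synthetases, 15 mitochondrial synthetases (symbols ending in 2) and AIMP1. Another 5 probe sets carried the symbols of MARS1, QARS1 or TARS2 together with that of a microRNA gene and were left out, and other synthetase genes were not analysed here.

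Panc-1 is an established cell line from a human pancreatic adenocarcinoma, and the study used it as a model of the epithelial-mesenchymal transition that TGFβ induces. The treated cells (3 arrays) received 5 ng/mL porcine TGFβ1 for 48 h after 24 h without serum, and the untreated cells (3 arrays) went through the same serum starvation and received plain medium. The labels give this dose, whereas the methods of the study state it in nM, and these statements were not reconciled here. The experiment was done 3 times per the labels, in 1 cell line, and nothing says more of how far the cultures were separate, so p-values measure the spread between these arrays.

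Each synthetase joins 1 amino acid to the tRNAs that carry it to the ribosome. Most amino acids have separate nuclear genes for the cytosolic enzyme and for the enzyme imported into mitochondria, where it serves the translation of the few proteins encoded by mitochondrial DNA. GARS1 and KARS1 are exceptions that supply both compartments. Several cytosolic enzymes sit in a multi-synthetase complex built on scaffold proteins such as AIMP1, and others work on their own. In mammalian cells many cytosolic synthetase genes are induced when amino acids run short, through the transcription factor ATF4.

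Signal is given on the log2 scale throughout, and a log2 fold change is the mean of the TGFβ arrays minus that of the untreated arrays. Array medians ranged from 5.14 to 5.21. A probe set was tested if its mean signal reached 100 (6.64 on the log2 scale) in at least 1 group, and the tested probe sets of a gene were averaged. All 33 genes had a tested probe set, 52 of the 70 probe sets passed, and 0 passed through 1 group alone. Of 4 epithelial markers, KRT8, KRT18 and EPCAM lay above this limit and KRT19 below it, and 0 of 2 acinar, 3 endocrine, 4 fibroblast, 4 leukocyte and 3 endothelial markers lay above it. The 3' to 5' difference of the ACTB control probe sets, a sign of RNA quality, was 0.33 ± 0.060 on TGFβ arrays and 0.55 ± 0.031 on untreated arrays, while that of GAPDH was -0.028 ± 0.023 with TGFβ and -0.0096 ± 0.0096 without it (log2, SD, n = 3 each). ACTB itself read higher with TGFβ, by 0.28 at the 3' set and 0.50 at the 5' set. For GAPDH these values were 0.010 and 0.029. The part of the 3' to 5' difference of ACTB in the results below was not tested.

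Most cytosolic synthetases that changed were higher with TGFβ, by small amounts. Of the 17 cytosolic genes, 9 rose (52.9%), 1 fell (5.88%) and 7 did not pass the test, an adjusted p under 0.05 in limma with Benjamini-Hochberg adjustment over 10115 genes. Among all genes tested 27.7% rose and 31.0% fell, together 58.7%. Of the 15 mitochondrial genes, 2 rose (13.3%), 1 fell (6.67%) and 12 did not pass. The median log2 fold change was 0.17 for cytosolic and -0.077 for mitochondrial synthetases, against -0.013 for all genes. Without probe sets ending in _x_at or _s_at, which may match several transcripts, 5 of the 10 cytosolic genes still measured rose and the cytosolic median was 0.092, and without the filter on signal it was 0.11. Leaving out each replicate number in turn gave 0 to 3 mitochondrial genes lower. Whether the classes differed from each other or from other genes was not tested. A called change of at least 1.5-fold, found in 13.4% of all genes, was found in 1 of the 33 members, VARS1. In bulk RNA from a culture, fewer cells that express a gene and less RNA per cell cannot be told apart.

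The largest rise was in VARS1, which charges the valine tRNAs. Its signal was 8.55, 8.48 and 8.56 on the TGFβ arrays and 7.76, 7.89 and 8.0 on the untreated arrays. The groups were well apart, and the untreated arrays spread more than the treated ones. VARS1 rose by 0.65 (SE 0.062), or 1.57-fold (adjusted p = 0.000363), and it was called with each replicate left out, at 0.58 to 0.69.

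GARS1, the glycine enzyme of both cytosol and mitochondria, read 13.45, 13.38 and 13.36 with TGFβ and 12.88, 12.87 and 12.95 without it. All 3 treated arrays lay above all 3 untreated ones, and the rise was 0.50 (SE 0.054, adjusted p = 0.000581). HARS1, the histidine enzyme of the cytosol, read 10.32, 10.26 and 10.28 with TGFβ and 9.81, 9.80 and 9.81 without it. The untreated arrays differed by little, with an SD of 0.0073, and the rise of 0.48 (SE 0.048, adjusted p = 0.00042) was many times that spread.

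The cytosolic phenylalanine enzyme is built of a catalytic chain, FARSA, and a second chain, FARSB, and both genes rose. FARSA read 9.09, 8.99 and 8.99 with TGFβ and 8.57, 8.64 and 8.63 without it, a rise of 0.41 (SE 0.057, adjusted p = 0.00143). FARSB read 11.06, 11.26 and 11.16 with TGFβ and 10.88, 10.96 and 10.78 without it. The groups did not overlap, although the arrays spread more than those of FARSA, and the rise was 0.29 (SE 0.059, adjusted p = 0.00719). With its 2 dim probe sets included, which happens without the filter on low signal, FARSB no longer passed (0.11, adjusted p = 0.486).

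KARS1, the lysine enzyme, averaged 12.37 ± 0.029 with TGFβ and 12.09 ± 0.019 without it (SD, n = 3 each), and in limma it rose by 0.28 (SE 0.047, adjusted p = 0.00305). Smaller rises were found in RARS1 (arginine; 0.22, SE 0.050), CARS1 (cysteine; 0.18, SE 0.058) and SARS1 (serine; 0.17, SE 0.047). These 3 calls were lost in some fits, although with fewer arrays the changes stayed between 0.12 and 0.24. RARS1 did not pass without replicate 2 (adjusted p = 0.0905), SARS1 did not pass without replicate 2 (0.119), without replicate 3 (0.136) or with quantile normalisation (0.0617), and CARS1 did not pass without replicate 1 (0.078), 2 (0.11) or 3 (0.0694).

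AARS1, the alanine enzyme, was the only cytosolic member that fell. Its signal was 10.55, 10.60 and 10.56 on the TGFβ arrays and 10.90, 10.85 and 10.90 on the untreated arrays. The groups were separated by many times their SDs of 0.027 and 0.029, and the log2 fold change was -0.31 (SE 0.051, adjusted p = 0.00272), 1.24-fold lower. VARS1, GARS1, HARS1, FARSA, KARS1 and AARS1 were called in every alternative limma fit that gave them a value. VARS1 and GARS1 have only _s_at probe sets, so the fit without _x_at and _s_at sets gave them none.

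**Figure D1:**
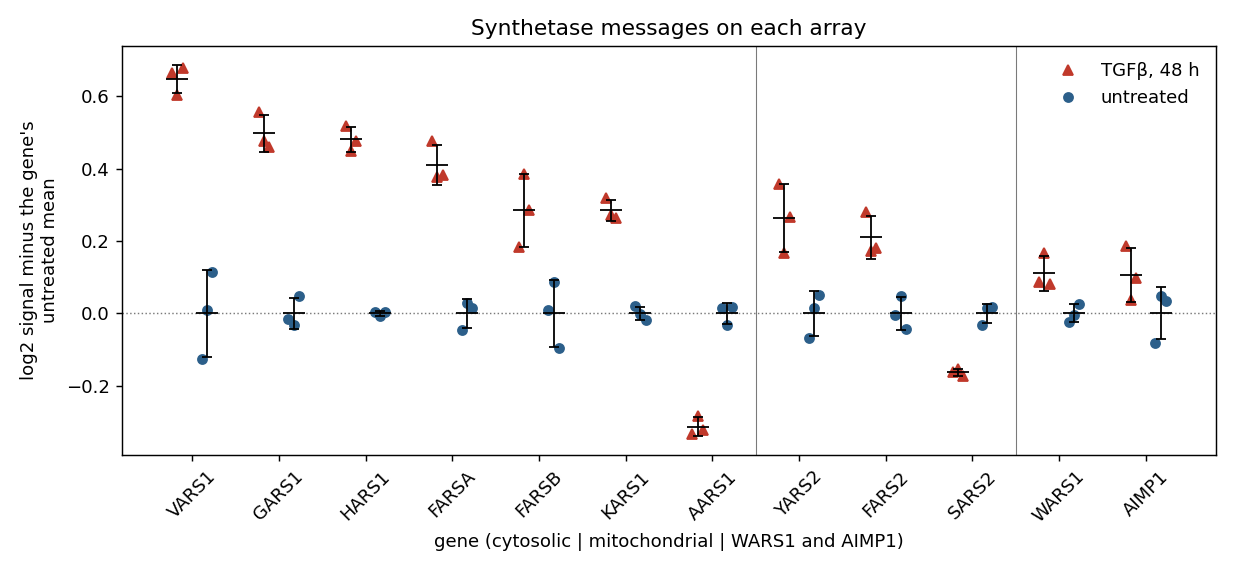
Log2 signal of 12 genes on each array, after subtracting the gene's mean on the untreated arrays (vertical axis), with triangles for the 3 TGFβ arrays, circles for the 3 untreated arrays and black bars for the mean and SD of each group. VARS1 lies 0.65 above its untreated mean, AARS1 and SARS2 lie 0.31 and 0.16 below theirs, and AIMP1 is the gene whose groups overlap.

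The other cytosolic genes did not pass. YARS1 (tyrosine) gave 0.16 (SE 0.060, adjusted p = 0.0636) although its TGFβ arrays lay above the untreated arrays. This non-call depended on the model, since YARS1 passed without the replicate block (adjusted p = 0.0426), with median centring (0.0285) and with a variance trend (0.0203). WARS1 (tryptophan) read 11.23, 11.31 and 11.23 with TGFβ and 11.12, 11.14 and 11.17 without it. The groups of WARS1 did not overlap either, and the difference was 0.11 (SE 0.051, adjusted p = 0.107). WARS1 passed only with a variance trend (adjusted p = 0.0427). EPRS1, which joins the glutamate and proline enzymes in 1 protein, gave 0.030 (SE 0.052), TARS1 (threonine) 0.014 (SE 0.080), IARS1 (isoleucine) -0.0048 (SE 0.058), NARS1 (asparagine) -0.011 (SE 0.048) and LARS1 (leucine) -0.083 (SE 0.061). For these 5 genes the groups overlapped and adjusted p ran from 0.282 to 0.948, although LARS1 passed without replicate 1 (adjusted p = 0.0357). In all, the TGFβ arrays lay above the untreated arrays without overlap for 11 of 17 cytosolic genes and below for 1, against 32.7% and 35.5% of all genes.

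**Figure D2:**
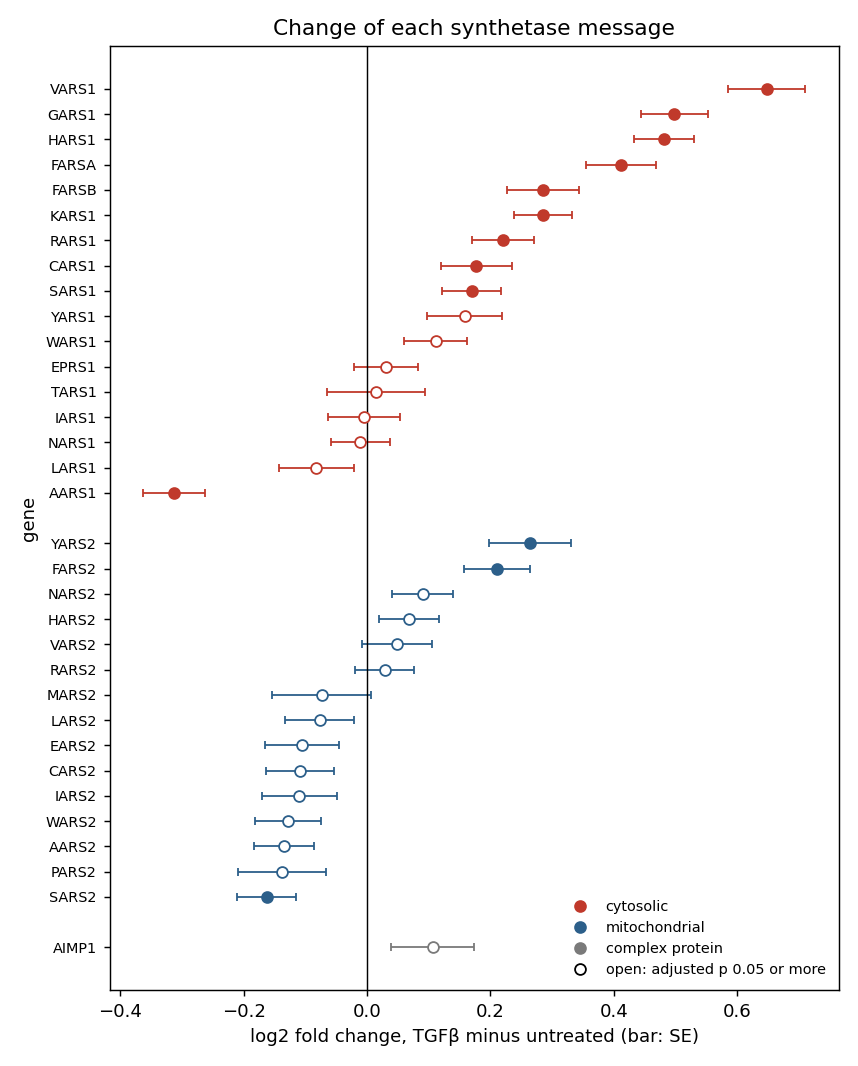
Log2 fold change of each of the 33 genes, TGFβ minus untreated (horizontal axis, bars are SE, 3 arrays per group), ordered within the cytosolic, mitochondrial and complex classes, with filled points for adjusted p under 0.05. Of the 17 cytosolic genes 9 lie to the right with filled points, whereas 12 of the 15 mitochondrial points are open.

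Among mitochondrial synthetases the changes were small in both directions. YARS2, the tyrosine enzyme, read 10.13, 9.94 and 10.04 with TGFβ and 9.71, 9.79 and 9.83 without it, a rise of 0.26 (SE 0.067, adjusted p = 0.0157). The groups did not overlap, and YARS2 was called in every alternative limma fit. FARS2, the phenylalanine enzyme, read 8.44, 8.33 and 8.34 with TGFβ and 8.15, 8.21 and 8.11 without it, a rise of 0.21 (SE 0.054, adjusted p = 0.0167). It did not pass without replicate 3 (0.20, adjusted p = 0.082) or with its dim probe sets averaged in (0.083, adjusted p = 0.325).

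SARS2, the serine enzyme, was the 1 mitochondrial gene that fell. Its signal was 9.01, 9.02 and 9.00 with TGFβ and 9.14, 9.19 and 9.19 without it, with a log2 fold change of -0.16 (SE 0.048, adjusted p = 0.0277). The treated arrays were almost identical. The call was lost without replicate 2 (adjusted p = 0.143), without replicate 3 (0.168) and with dim probe sets left in the test (0.0666), with a log2 fold change of -0.15 to -0.16 in these fits.

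The 12 mitochondrial genes that did not pass ran from 0.090 for NARS2 to -0.14 for PARS2, with adjusted p between 0.0529 and 0.64. NARS2 (asparagine), HARS2 (histidine; 0.068), VARS2 (valine; 0.048) and RARS2 (arginine; 0.028) had values above 0. MARS2 (methionine; -0.074), LARS2 (leucine; -0.077), EARS2 (glutamate; -0.11), CARS2 (cysteine; -0.11), IARS2 (isoleucine; -0.11), WARS2 (tryptophan; -0.13), AARS2 (alanine; -0.14) and PARS2 (proline; -0.14) had values below 0. Some of these non-calls depended on the fit, as IARS2 passed with quantile normalisation (adjusted p = 0.0462) and without replicate 1 (0.02). Of the 15 mitochondrial genes, the TGFβ arrays lay above the untreated arrays for 4 and below them for 3, against 32.7% and 35.5% of all genes.

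For most amino acids the cytosolic and mitochondrial enzymes could be set side by side. In 14 such comparisons, the change of the cytosolic gene minus that of the mitochondrial gene was above 0 in 10. EPRS1 stood in both the glutamate (0.14, with EARS2) and the proline comparison (0.17, with PARS2). Both count among the 10, so the comparisons are not all separate. It was 0.60 ± 0.22 for valine (VARS1, VARS2), 0.41 ± 0.0079 for histidine (HARS1, HARS2), 0.33 ± 0.041 for serine (SARS1, SARS2) and 0.29 ± 0.057 for cysteine (CARS1, CARS2), each with the SD over the 3 same-numbered pairs. The 4 amino acids with a value below 0 were alanine (-0.18 ± 0.020), tyrosine (-0.11 ± 0.085), asparagine (-0.10 ± 0.027) and leucine (-0.0058 ± 0.041). An exact two-sided permutation test over the 6 arrays, which did not use the pairing by replicate number, gave p = 0.1 for 10 of the 14 differences. That is the smallest p this test can give with 3 arrays against 3, so it cannot reach 0.05 for a single difference.

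**Figure D3:**
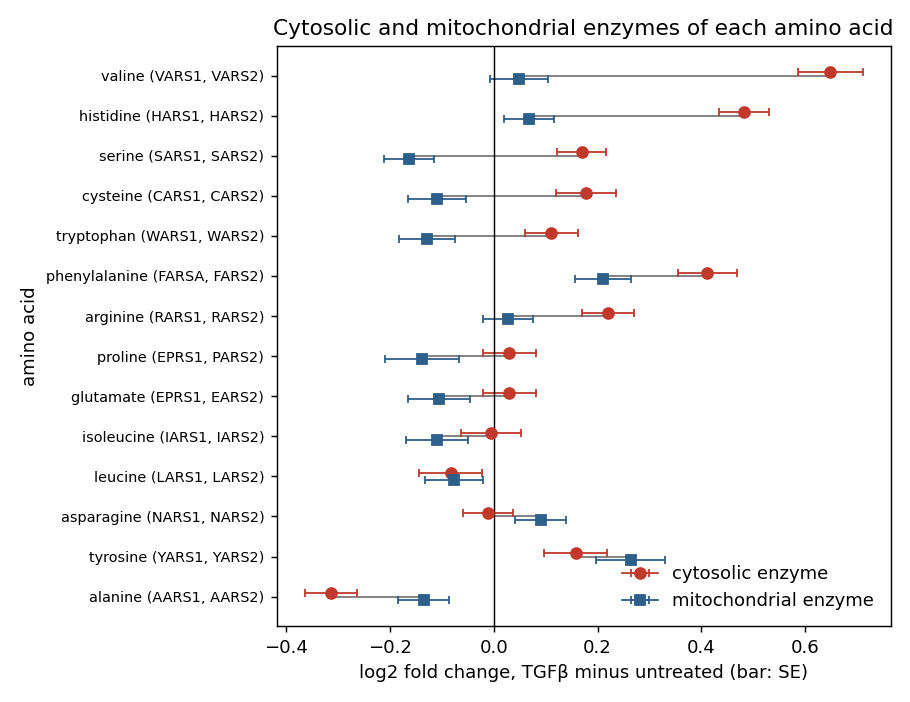
Log2 fold change, TGFβ minus untreated (horizontal axis, bars are SE), of the cytosolic enzyme (circles) and the mitochondrial enzyme (squares) for each of 14 amino acids. The amino acids are ordered by the cytosolic change minus the mitochondrial change, with its sign. The valine pair is the widest, at 0.65 for VARS1 and 0.048 for VARS2, and alanine is at the other end, with AARS1 at -0.31 and AARS2 at -0.14.

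The histidine genes are a close comparison because HARS1 and HARS2 are neighbours that are read in opposite directions from adjacent start sites. HARS2 read 9.97, 9.87 and 9.91 with TGFβ and 9.86, 9.82 and 9.85 without it. Its treated arrays lay barely above the untreated ones, and it did not pass (0.068, SE 0.048, adjusted p = 0.268), whereas the rise of HARS1 exceeded that of HARS2 in all 3 pairs, by 0.41 to 0.42. By RefSeq (GRCh38.p14) the start sites lie 85 bases apart on chromosome 5, and the promoter windows of both genes, from 250 bases before to 50 after the start, share the 184 bases of chr5:140691321-140691504. The shared stretch is shown on the strand of HARS2, in lower case throughout.
HARS1 and HARS2, shared: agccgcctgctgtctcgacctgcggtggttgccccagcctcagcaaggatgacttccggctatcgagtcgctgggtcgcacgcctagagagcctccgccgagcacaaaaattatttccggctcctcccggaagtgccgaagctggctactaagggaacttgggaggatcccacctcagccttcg
The genes encode similar proteins, and how far the probe set of 1 gene also reads the RNA of the other was not tested.

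Within the cytosolic class the genes were grouped by their place in the cell and by the 2 structural classes of synthetases. Of the 5 measured enzymes of the multi-synthetase complex, KARS1 and RARS1 rose and EPRS1, IARS1 and LARS1 did not pass (median 0.030), while of the 12 enzymes outside it 7 rose and AARS1 fell (median 0.17). AIMP1, the scaffold protein, read 9.57, 9.42 and 9.48 with TGFβ and 9.30, 9.43 and 9.42 without it. The groups overlapped and AIMP1 did not pass (0.11, SE 0.067, adjusted p = 0.217), but it passed when its brightest probe set stood for it (0.28, adjusted p = 0.00594) and with the stricter filter (0.18, adjusted p = 0.0272). Of 8 class I enzymes, counting EPRS1 with them, VARS1, RARS1 and CARS1 rose (median 0.13). Of 9 class II enzymes 6 rose and AARS1 fell (median 0.28). These counts stand against 27.7% of all genes higher and 31.0% lower, and the groups were not tested against each other.

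Genes with several probe sets showed how firmly a gene value rests on 1 sequence. By probe set, 18 of the 52 tested rose and 4 fell, against 26.6% and 28.5% of the 19101 probe sets tested. The methods' t-test (paired), after Benjamini-Hochberg adjustment, called 5 of the 52, against 22 in limma. In VARS1, FARSA and KARS1 both probe sets rose, at 0.47 and 0.82, 0.33 and 0.49, and 0.19 and 0.38. No member had tested probe sets called in opposite directions.

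In other genes the probe sets parted. WARS1, whose product is induced by interferon in many human cells, had 1 probe set that rose (0.22, SE 0.056, adjusted p = 0.0166) and 1 that did not pass (-0.0017, SE 0.058). The probe set that rose read 10.83 with TGFβ and 10.61 without it, and the other read 11.68 in both groups. CARS1 had 2 probe sets that rose (0.31 and 0.21) and a brighter one at 0.012, so the call of the gene was lost when the brightest probe set stood for it (adjusted p = 0.858). AIMP1 had 1 that rose (0.28, adjusted p = 0.00837) beside others at 0.080 and -0.038.

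LARS1 had the widest spread, from -0.36 (SE 0.079), the 1 probe set that fell, to 0.17 (SE 0.068). The lowest was an _x_at set, a suffix that marks probes which may also match unrelated sequences. EARS2 had 1 probe set that fell (-0.28) beside -0.053 and 0.016, and the gene passed when its brightest probe set stood for it (adjusted p = 0.00794), with the stricter filter (0.00534) and without replicate 1 (0.0247). RARS2 had 1 that rose (0.22, SE 0.074) beside -0.053 and -0.082, and its sign turned with the brightest probe set (-0.082) and with the stricter filter (-0.068).

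**Figure D4:**
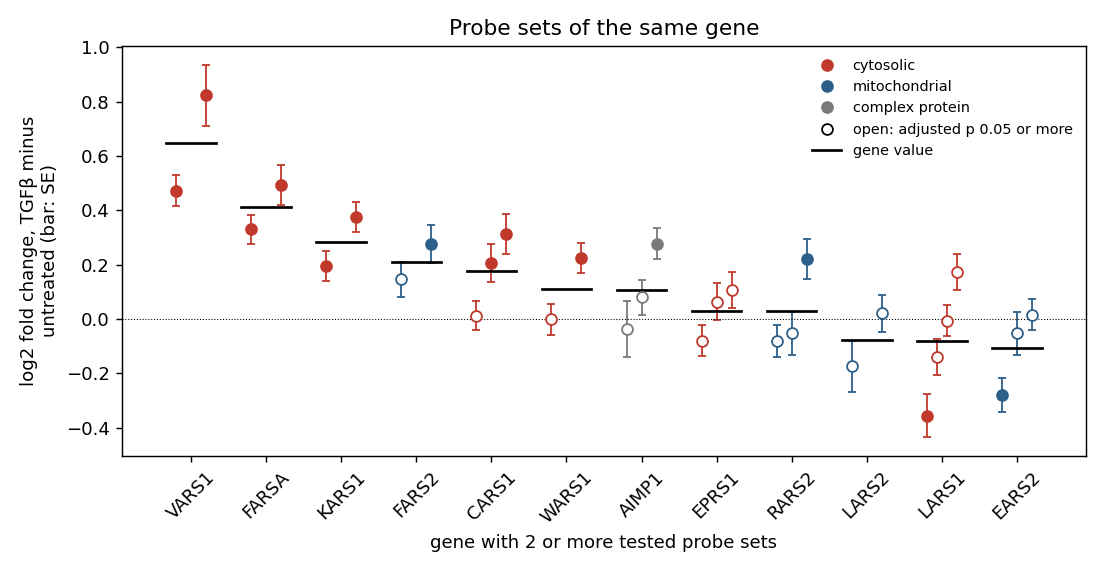
Log2 fold change, TGFβ minus untreated (vertical axis, bars are SE), of every tested probe set of the 12 genes that had 2 or more, with filled points for adjusted p under 0.05 over all probe sets and a black line for the gene value. In VARS1, FARSA and KARS1 all points lie above 0 and are filled, whereas those of LARS1 run from -0.36 to 0.17.

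The promoters of the members were searched for the C/EBP-ATF response element, the sequence through which ATF4 acts on genes of the amino acid response, written TGATGNAA and searched on both strands. RefSeq promoter windows of 300 bases (GRCh38.p14) were at hand for 28 of the 33 members. The windows of VARS1, LARS1, YARS1, VARS2 and AARS2 were not used here. Of 14 cytosolic promoters 5 held the element and of 13 mitochondrial promoters 1 did (YARS2), against 3.62% of all 35116 promoters. The matches in the cytosolic genes are shown with 16 bases on each side, on the strand of the gene, with the element in capitals (TTGCATCA is TGATGCAA read on the opposite strand), so that their closeness to each other can be seen.
AARS1 (chr16:70289670-70289709): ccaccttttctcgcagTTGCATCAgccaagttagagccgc
CARS1 (chr11:3057402-3057441): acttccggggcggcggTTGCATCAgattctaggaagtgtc
IARS1 (chr9:92293687-92293726): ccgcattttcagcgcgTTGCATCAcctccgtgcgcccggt
NARS1 (chr18:57621799-57621838): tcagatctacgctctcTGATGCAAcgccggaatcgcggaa
TARS1 (chr5:33440951-33440990): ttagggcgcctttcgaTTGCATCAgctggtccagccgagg

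All 5 held the same letters, and in CARS1, IARS1, NARS1 and TARS1 the element began within 14 bases of the start site, on either side of it, whereas in AARS1 it began 187 bases before. Of these 5 genes CARS1 rose, AARS1 fell and IARS1, NARS1 and TARS1 did not pass, with a median log2 fold change of -0.0048. Of the 9 cytosolic genes with a window that lacked the element, 7 rose, 0 fell and 2 (EPRS1 and WARS1) did not pass, with a median of 0.28 and values from 0.030 to 0.50. The difference between these groups of genes was not tested. A match is a description of letters and not of binding.

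Genes around the synthetases moved in both directions. Of 11 further genes of tRNA charging and proofreading, 4 rose and 4 fell, close to the 27.7% higher and 31.0% lower among all genes. MTFMT, which formylates the mitochondrial initiator tRNA, rose (0.34, SE 0.049), as did DTD2 (0.36, SE 0.071), which removes wrongly charged amino acids, and TRNT1 (0.27, SE 0.054), which adds the CCA end that synthetases charge. PSTK (-0.44, SE 0.066) and SEPSECS (-0.37, SE 0.054), the enzymes that make selenocysteine on its tRNA, and TARS3 (-0.34, SE 0.085), a relative of TARS1, fell. The mean of SEPSECS lay above the signal limit only without TGFβ (6.77, against 6.40 with it). At least part of its signal thus passed the filter only through the untreated group, which favours a lower reading with TGFβ. Of 15 genes of mitochondrial translation and mitochondrial RNA handling 6 rose and 2 fell. The largest rises were in the release factor genes MTRF1 (0.50, SE 0.16) and MTRF1L (0.47, SE 0.055), followed by PNPT1 (0.32, SE 0.048). LRPPRC (-0.35, SE 0.051) and MTIF3 (-0.16, SE 0.049) were lower. Of 6 genes of cytosolic elongation EIF5A rose (0.53, SE 0.12), EEF1A1 (-0.31, SE 0.048) and the elongation factor kinase EEF2K (-0.47, SE 0.073) fell and 3 did not pass.

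Of 9 measured transporters that supply amino acids, 7 rose and 1 fell, with a median of 0.42, again against 27.7% and 31.0% of all genes. SLC7A6 (0.77, SE 0.065), SLC7A5 (0.61, SE 0.077) and SLC7A1 (0.53, SE 0.056) rose by the most, and SLC38A2 fell (-0.40, SE 0.051). Of 22 genes of the ATF4 amino acid response 12 rose and 3 fell (median 0.21). SESN2 (0.86, SE 0.057), CTH (0.61, SE 0.051) and CHAC1 (0.60, SE 0.062) were among the rises, and PSPH (-0.44, SE 0.066), DDIT3 (-0.32, SE 0.049) and NUPR1 (-0.20, SE 0.057) fell. ATF4 itself (0.091, SE 0.048, adjusted p = 0.152) and its target ASNS, which makes asparagine (-0.16, SE 0.057, adjusted p = 0.0567), did not pass. Of 9 measured interferon response genes 6 fell and 1 rose (median -0.45), beside the value of 0.11 for WARS1. IFIT1 (-1.07, SE 0.058), PSMB8 (-0.68, SE 0.051), PSMB9 (-0.56, SE 0.055) and the transcription factor IRF1 (-0.53, SE 0.058) were lower. TAP1 was higher (0.35, SE 0.066). IFIT1 and IRF1 passed the filter only through the untreated group, at 7.34 and 7.05, and read 6.27 and 6.52 with TGFβ. A gene kept in this way can only read lower with TGFβ.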

How the data were processed

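RNA from 3 TGFβ-treated and 3 untreated Panc-1 cultures was measured on the 54675 probe sets of a genome-wide Affymetrix array (U133 Plus 2.0). The authors deposited 1 table of normalised log2 signal, and the software and normalisation behind it are not given in the sources used here. Array data carry no read depth, so the number of arrays limits the precision. Genes came from the platform annotation: 41091 probe sets name 1 gene, 1801 several and 11721 none, and 62 are controls. Gene values and members used only the probe sets that name 1 gene. The fit by probe set ran over all 19101 that passed the filter, without controls, also those that name several genes or none.

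Gene values were fitted with limma 3.58.1 in R 4.3.3, blocked on replicate number, as the methods of the study use a paired test. Benjamini-Hochberg adjustment ran over all genes, or all probe sets, that passed the filter. The same code was tested on simulated data with known changes.

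Every member is named with its log2 fold change. Values on every array are given for the 6 called cytosolic and up to 6 called mitochondrial members with the largest change, for AIMP1 and WARS1, and for members with probe sets called in opposite directions. Context lists name up to 3 called genes per direction, with ATF4, ASNS and IRF1. HARS2 was added after its values were seen, as were the comparison by amino acid and the split by promoter element. The members and lists were chosen with earlier results of these data known. Alternatives were no replicate block, no filter, a stricter filter (signal 200), a filter on the mean of all arrays, quantile normalisation, median centring, an added constant of 16, the brightest probe set, no _x_at or _s_at probe sets, a variance trend, each replicate number left out and the methods' t-test. Promoters were scanned in Python 3.11.15 with pandas 2.3.3, and figures were drawn with matplotlib 3.10.9.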

Additional observations from a re-analysis of the deposited data

How the results depend on the processing

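VARS1, GARS1, HARS1, FARSA, KARS1, AARS1 and YARS2 kept their calls in every alternative limma fit that gave them a value, and the filter on the mean of all arrays and the added constant changed no call of the 33 genes. Deviations of same-numbered arrays correlated at -0.29, 0.24 and 0.060. With 3 arrays a group, these values cannot show whether same-numbered arrays share more than a number. The replicate block stands because the study's methods pair the arrays. Without it 6265 genes were called, against 5934 with it, YARS1 was gained (adjusted p = 0.0426) and 2 mitochondrial genes were lower, WARS2 being gained (0.0382). The number of mitochondrial genes lower was also 2 with the stricter filter (of 12 measured), quantile normalisation and the brightest probe set. Without the filter 1 mitochondrial gene was higher, and without the _x_at and _s_at probe sets 5 of the 10 cytosolic genes left were higher, with fewer genes measured. The cytosolic median was 0.11 without the filter, 0.12 with quantile normalisation, 0.18 with centring, 0.16 with the brightest probe set and 0.092 without those probe sets. Leaving out each replicate number in turn gave 6 to 8 cytosolic genes higher and 1 to 2 lower, 1 to 2 mitochondrial genes higher and 0 to 3 lower, a cytosolic median of 0.12 to 0.19 and 4296 to 6484 genes called in all. Beyond the fewer arrays or probe sets of some fits, the cause of these changes was not tested. The methods' t-test called 17 of the 52 member probe sets unadjusted and 5 after Benjamini-Hochberg adjustment, against 22 in limma.

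Only genes that did not pass changed sign: WARS1 (-0.0017 with the brightest probe set and without _x_at and _s_at sets), TARS1 (-0.026 with quantile normalisation), IARS1 (0.0089) and NARS1 (0.0028) with centring, and RARS2 (-0.068 with the stricter filter, -0.082 with the brightest probe set). Without replicate 1, 2 or 3 EPRS1 ran from -0.0039 to 0.059, TARS1 from -0.098 to 0.078, IARS1 from -0.063 to 0.031 and MARS2 from -0.15 to 0.035. With 3 arrays a group and a median SE of 0.056, the smallest called change among members was -0.16, in SARS2.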

Other observations

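Other short motifs were searched in the same RefSeq promoter windows, on both strands, and are given as values. The core of the site for NRF1, a regulator of genes for mitochondrial proteins (GCGCNTGCG), was in 4 of 14 cytosolic and 4 of 13 mitochondrial promoters, against 7.47% of all promoters. The E-box bound by MYC and its relatives (CACGTG) was in 1 of 14 and 3 of 13, against 7.26%. The element of the interferon regulatory factors (GAAANNGAA) was in 2 of 14 and 1 of 13, against 8.11%.

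The element TGATGNAA in the promoter of the mitochondrial YARS2, whose gene rose by 0.26, differed in its letters from that of the cytosolic genes and lay 197 bases before the start site, in this stretch of RefSeq (GRCh38.p14), with the element in capitals.
YARS2 (chr12:32756071-32756110): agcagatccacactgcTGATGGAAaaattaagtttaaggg

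Of the 18 member probe sets below the signal limit in both groups, some differed in signal but were not tested. A dim probe set of SARS1 read 5.67 with TGFβ and 5.19 without it, 1 of WARS2 read 5.48 with TGFβ and 5.88 without it, and 1 of CARS1 read 4.70 with TGFβ and 4.39 without it.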
